A study of Rattus norvegicus with 14 samples.

Results

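The mu class of glutathione transferases was followed in rat liver through all 8 genes whose symbol is Gstm followed by a digit, out of 14506 genes measured by probes with exactly 1 gene symbol. They are Gstm1, Gstm2, Gstm3, Gstm4, Gstm5, Gstm6, Gstm6l and Gstm7, each read by 1 probe (a transcript cluster of the array). The livers came from 14 lean female Zucker rats of about 15 weeks, all heterozygous for fa, a loss-of-function allele of the leptin receptor, so both groups carry that allele and neither is obese. For 64 days, 7 rats ate a standard diet with a rosemary extract mixed in at 0.05% by weight, and 7 control rats ate the standard diet alone. Carnosic acid, a phenolic diterpene of rosemary, made up 40% of the extract. The sample labels give the 0.05% dose, whereas the series title gives 0.5%.

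Glutathione transferases join the thiol of glutathione to electrophilic compounds, which makes them more soluble and marks them for export from the cell. The mu-class enzymes are dimeric proteins of the cytosol, assembled from subunits made by several closely related genes, and those encoded by Gstm1 and Gstm2 are abundant in adult rat liver. Transferase genes are known targets of NRF2, the transcription factor activated by electrophiles, and of the xenobiotic receptor CAR.

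The mu-class genes lie side by side. On the GRCr8 assembly, in NCBI's gene table, 9 protein-coding genes with such symbols fill 9 consecutive places on chromosome 2, with 0 other protein-coding genes among them. The order runs Gstm5, Gstm6l, Gstm7, Gstm6, Gstm3l1, Gstm3, Gstm2, Gstm1 and Gstm4, and Gstm3l1 was not analysed here. Gstm5 stands at one end and has its promoter on the plus strand, while the listed promoters of the other genes are on the minus strand. The 250 bases before the transcription start are given for 4 genes, taken from RefSeq on GRCr8. These are the 2 genes with the largest rises, Gstm3 and Gstm2, and the 2 genes whose window holds the core of the antioxidant response element bound by NRF2. Capitals mark that core, TGACNNNGC, and the TATA box, TATAAA, each searched on both strands.
Gstm3, chr2:198300668-198300917, minus strand: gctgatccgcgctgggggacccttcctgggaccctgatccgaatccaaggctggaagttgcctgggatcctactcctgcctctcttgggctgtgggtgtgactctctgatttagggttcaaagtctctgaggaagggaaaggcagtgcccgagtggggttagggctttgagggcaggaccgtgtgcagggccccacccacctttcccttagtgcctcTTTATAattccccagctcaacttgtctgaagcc
Gstm2, chr2:198316918-198317167, minus strand: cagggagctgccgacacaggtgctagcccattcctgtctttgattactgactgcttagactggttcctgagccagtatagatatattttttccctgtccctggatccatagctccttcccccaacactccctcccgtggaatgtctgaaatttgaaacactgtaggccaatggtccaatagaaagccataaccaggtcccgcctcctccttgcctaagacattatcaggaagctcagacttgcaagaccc
Gstm7, chr2:198260320-198260569, minus strand: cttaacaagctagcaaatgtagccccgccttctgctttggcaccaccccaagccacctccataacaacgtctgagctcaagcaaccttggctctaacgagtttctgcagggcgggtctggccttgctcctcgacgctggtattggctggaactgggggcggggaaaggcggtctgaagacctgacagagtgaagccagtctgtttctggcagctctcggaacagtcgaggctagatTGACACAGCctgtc
Gstm5, chr2:198219519-198219768, plus strand: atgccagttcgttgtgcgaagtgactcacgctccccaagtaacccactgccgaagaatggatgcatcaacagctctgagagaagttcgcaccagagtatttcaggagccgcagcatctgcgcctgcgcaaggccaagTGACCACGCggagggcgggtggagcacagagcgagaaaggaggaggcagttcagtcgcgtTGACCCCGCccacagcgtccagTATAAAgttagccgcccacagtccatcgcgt

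Of the 7 mu-class promoters listed (Gstm6l has no entry), 2 hold the antioxidant response core, against 10.1% of 33469 promoters of the same length. In Gstm5 it occurs 2 times, as TGACCACGC from base 113 to 105 before the start and as TGACCCCGC from base 53 to 45. In Gstm7 it occurs 1 time, as TGACACAGC from base 14 to 6. The TATA letters are in 3 of the 7 windows, those of Gstm1, Gstm3 (on the opposite strand, as TTTATA) and Gstm5, against 12.9% of all promoters. No match overlapped another. A match describes the letters in this window and is not evidence of binding.

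Most of the family was higher with the extract. Of the 8 genes, 5 rose, 0 fell and 3 did not pass limma's moderated test at a Benjamini-Hochberg adjusted p of 0.05 over all genes. Over all 14506 genes, 2.00% were called higher and 1.15% lower. At an unadjusted p under 0.05, which 14.8% of all genes reached, there were 6 mu-class genes, Gstm5 being the additional one, and the unequal-variance test per gene also called 5 genes higher and 0 lower. The median log2 fold of the 8 genes was 0.51, against -0.00088 over all genes. The 5 that rose were Gstm3, Gstm2, Gstm6l, Gstm4 and Gstm1, in order of log2 fold. Values are log2 RMA values, and because each probe responds differently, levels of different genes are not ranked against each other.

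Gstm2, which encodes one of the main mu-class subunits of rat liver, had the smallest p of the family. Its log2 value ran from 11.73 to 11.92 in extract rats, with a median of 11.87, and from 10.44 to 10.98 in control rats, with a median of 10.68. Every extract rat lay above every control rat, with a gap wider than the range of either group. The log2 fold was 1.10 ± 0.08 (SE, adjusted p = 3.21e-07), a 2.15-fold rise between means of 11.84 ± 0.07 with the extract and 10.73 ± 0.21 in controls (SD, n = 7 each).

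Gstm3, a further mu-class paralogue, had the largest fold. It ranged from 5.04 to 6.07 in extract rats with a median of 5.59, against 3.64 to 4.24 with a median of 3.87 in control rats. The groups were again fully apart. The rise was 3.18-fold (log2 fold 1.67 ± 0.13 SE, adjusted p = 5.22e-07), between means of 5.55 ± 0.35 in extract rats and 3.88 ± 0.20 in control rats (SD, n = 7 each). Its control mean was under 5.11, the control arrays' median over the whole table. RMA compresses folds near background, so this fold may be too small. How far signal shared with brighter paralogues adds to it, or to the folds of other members, was not tested.

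Gstm6l, by its name a Gstm6-like paralogue, ranged from 5.49 to 5.83 with a median of 5.63 in extract rats, against 4.50 to 5.26 with a median of 4.92 in control rats. No extract rat reached down into the control range. It rose 1.67-fold (log2 fold 0.74 ± 0.10 SE, adjusted p = 0.000177), and its control mean of 4.90 also lay below the median probe.

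Gstm4 was the gene with the most overlap among those that rose. Its values were 10.17 to 10.74 with a median of 10.55 in extract rats and 9.60 to 10.35 with a median of 9.92 in control rats. In 6 of 7 extract rats it exceeded all controls, and extract rat 7, at 10.17, lay below control rat 1, at 10.35. The rise was 1.55-fold (log2 fold 0.63 ± 0.11 SE, adjusted p = 0.00267).

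Gstm1, which encodes another abundant mu-class subunit of rat liver, had the smallest rise of the 5. It ranged from 13.04 to 13.28 with a median of 13.16 in extract rats, against 12.63 to 12.93 with a median of 12.73 in control rats. Although the shift was small, the groups did not overlap. It rose 1.31-fold (log2 fold 0.39 ± 0.07 SE, adjusted p = 0.00204), with means of 13.17 ± 0.09 in extract rats and 12.77 ± 0.12 in control rats (SD, n = 7 each). The Gstm1 probe was bright, with a control mean above that of 99.55% of genes. Whether folds are compressed at such high signal was not tested, and this limit holds wherever the Gstm1 fold is set beside another. With Gstm2, Gstm3 and Gstm6l, 4 of 8 members had every extract rat above every control rat. Over all genes, 1.54% showed no overlap in either direction and 1.09% were separated upward.

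**Figure D1:**
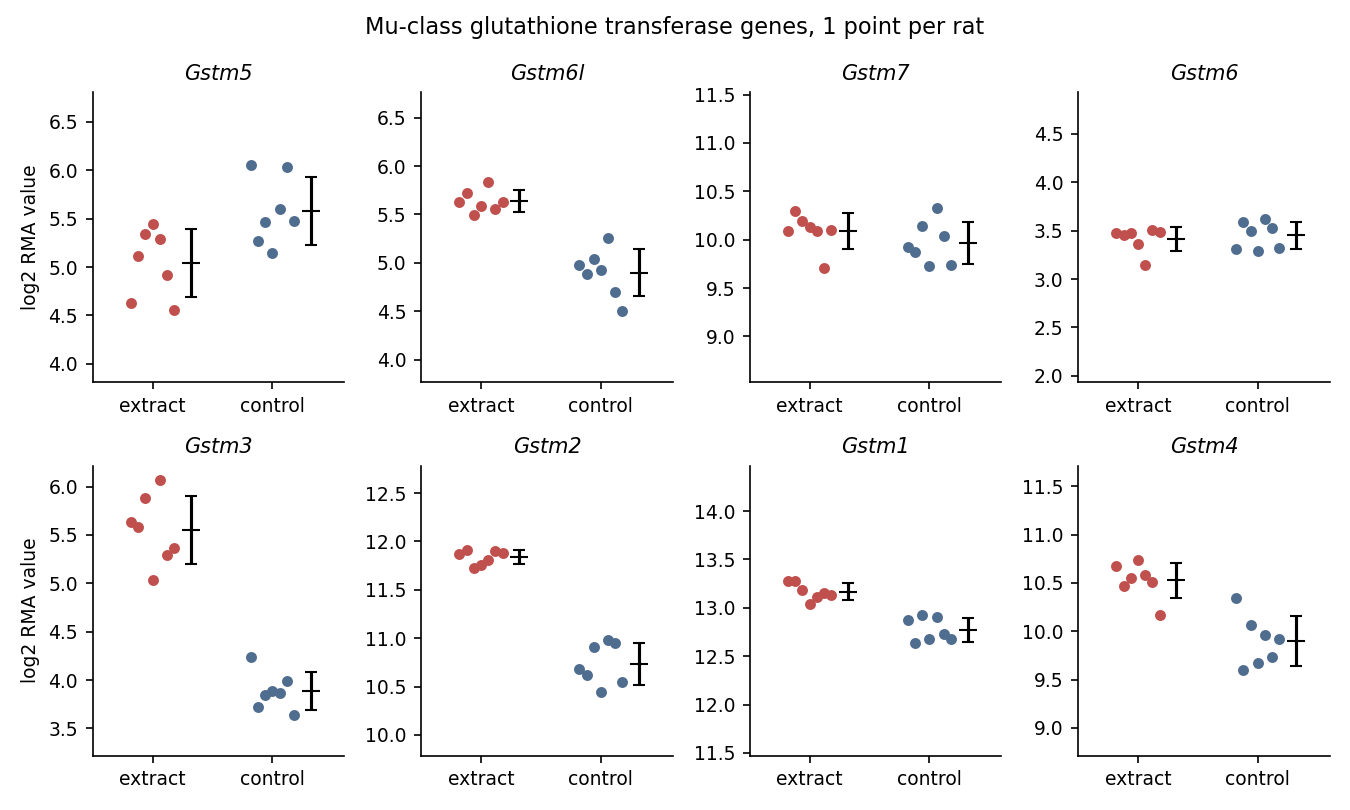
Log2 RMA values of the 8 mu-class genes, 1 point per rat, with extract rats on the left and control rats on the right of each panel. Black bars are means ± SD (n = 7), and all panels span the same number of log2 units. Gstm1, Gstm2, Gstm3 and Gstm6l show no overlap between the groups.

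The other 3 genes did not pass. Gstm7, whose probe is bright in these livers, ranged from 9.70 to 10.30 with a median of 10.10 in extract rats, against 9.73 to 10.33 with a median of 9.92 in control rats. The ranges lay almost on top of each other. The log2 fold was 0.12 (95% interval -0.09 to 0.33, adjusted p = 0.66), an interval that leaves out a rise as large as that of Gstm2. In extract rat 6 it stood at 9.70, apart from the other 6 extract rats, and without that rat the log2 fold was 0.18 (adjusted p = 0.38).

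Gstm6 was near the bottom of the array's scale in both groups, at 3.15 to 3.51 with a median of 3.47 in extract rats and 3.29 to 3.62 with a median of 3.50 in control rats. It was the 1 member with both means below the median probe. The log2 fold was -0.04 (95% interval -0.19 to 0.12, adjusted p = 0.90), and at such low signal a change could be understated.

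Gstm5, whose mouse counterpart is known as a form of testis and brain, had the most negative fold of the family. It ranged from 4.55 to 5.45 with a median of 5.12 in extract rats, against 5.15 to 6.05 with a median of 5.48 in control rats. In 4 of 7 extract rats it was below all controls, and 0 of 7 exceeded the control mean. Its extract mean of 5.04 lay below 5.1, the extract arrays' median over the whole table. The log2 fold was -0.54 ± 0.16 (SE, 95% interval -0.88 to -0.19), with an unadjusted p of 0.00407 and an adjusted p of 0.089. It therefore did not pass over all genes, and its adjusted p ran from 0.056 to 0.22 under 23 alternative settings.

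**Figure D2:**
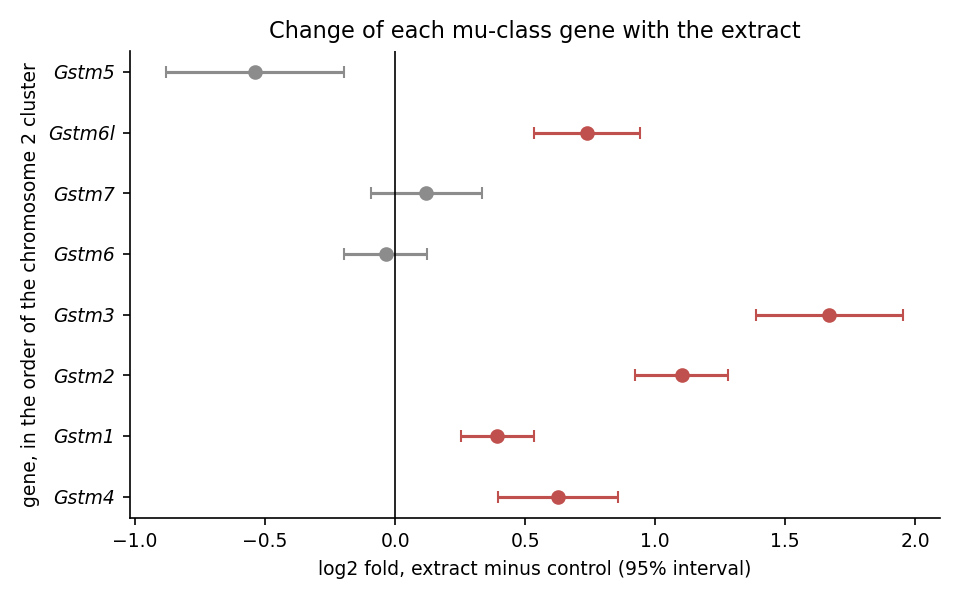
Log2 fold (extract minus control) of each mu-class gene with its 95% interval, listed down the page in their order along the chromosome 2 cluster. Red marks genes past an adjusted p of 0.05 and grey those that did not pass. The 4 neighbours Gstm3, Gstm2, Gstm1 and Gstm4 are all red, while Gstm5, Gstm7 and Gstm6 are grey.

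By position, the 4 genes at one end of the cluster, Gstm3, Gstm2, Gstm1 and Gstm4, all rose. Toward the other end Gstm6l, which rose, lies between Gstm5 and Gstm7, which did not pass. Outside the family, limma called 0 of the 8 tested genes among the 6 nearest protein-coding genes on each side, while 2 had an unadjusted p under 0.05 and the unequal-variance test called 0. With 3.15% of all genes called and 14.8% under that unadjusted p, counts this small in 8 genes do not set the neighbours apart from other genes. Their log2 folds lay between -0.31 for Csf1, the macrophage growth factor, and 0.26 for Ahcyl1, a regulator of calcium release (adjusted p = 0.28 and 0.23). Next to Gstm4, Ampd2, an AMP deaminase, had a log2 fold of -0.12 (adjusted p = 0.75). These neighbours were chosen after the values of the family were known.

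The paralogues changed by different amounts. For each pair of genes the difference of their log2 values within each rat was compared between the groups, so that a scaling shared by a whole array cancels. Of 28 pairs, 26 differed in fold by an exact two-sided permutation test over all ways of splitting 14 arrays into 7 and 7, at an adjusted p of 0.05 over the 28 pairs. In 16 pairs the p was 0.000583, the smallest that this test can give. Probes respond to concentration with different slopes, and the part of that in these differences was not tested. The 7 pairs with Gstm6, of which 6 passed, compare a probe near the bottom of the scale, where a change may be compressed, and do not show that Gstm6 responded less or more than another gene. Of the 21 pairs without it, 20 passed. Many of them hold a probe that was dim in 1 group. The control means of Gstm3 and Gstm6l, 3.88 and 4.90, lay below the median probe. So did the extract mean of Gstm5, 5.04. A compressed change may enter those pairs too.

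Among the 5 genes that rose, 9 of 10 pairs differed. Gstm2 rose by 0.71 more than Gstm1 on the log2 scale (exact permutation p = 0.000583, adjusted p = 0.00102), the within-rat difference having an SD of 0.079 in extract rats and 0.16 in control rats. Gstm3 rose by 0.57 more than Gstm2 (exact permutation p = 0.00583, adjusted p = 0.00742). The pair that did not pass was Gstm6l and Gstm4, with 0.11 (exact permutation p = 0.45). Of the pairs of a gene that rose with Gstm7 or Gstm5, 10 of 10 differed, among them Gstm2 over Gstm7 by 0.98 (adjusted exact permutation p = 0.00102). Gstm5 lay below Gstm7 by 0.66 (adjusted exact permutation p = 0.00192).

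Of the 26 calls, 2 were near the threshold and did not hold in most tests that left out 1 rat. Gstm4 over Gstm1 (0.23, adjusted exact permutation p = 0.049) kept its call when control rat 1, extract rat 2 or extract rat 7 was left out, and lost it when any of the other 11 was (adjusted p 0.051 to 0.097). Gstm6 over Gstm5, a difference in probe signal that carries the limit of the dim Gstm6 probe (0.50, adjusted exact permutation p = 0.046) kept it when control rat 2, control rat 4, extract rat 3, extract rat 4 or extract rat 5 was left out, and lost it for the other 9 (adjusted p 0.054 to 0.089). Gstm7 over Gstm6 did not pass over all rats (0.16, adjusted exact permutation p = 0.18), but did without extract rat 6 (0.23, adjusted p = 0.016).

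Covariation among the paralogues was examined within each group of 7 rats, since pooling the groups would count the shared rise as a correlation. Among 56 correlations, 0 passed an adjusted p of 0.05 (exact permutation of pairings), by Pearson's r or by Spearman's rho. At an unadjusted p under 0.05 there were 2 by Pearson's r and 3 by Spearman's rho, all in control rats. The strongest was that of Gstm2 with Gstm7 in control rats, with Pearson's r of 0.926 (exact permutation p = 0.00238, adjusted p = 0.13) and Spearman's rho of 0.964 (p = 0.00278, adjusted p = 0.16). It was 0.98 without the 2 rats farthest from the median of Gstm2. The same pair had an r of -0.27 in extract rats (exact permutation p = 0.63) and a rho of -0.14 (p = 0.78). The other by both measures was Gstm1 with Gstm4, with an r of 0.77 in control rats (exact permutation p = 0.046, adjusted p = 0.53), a rho of 0.86 (p = 0.024, adjusted p = 0.64) and an r of 0.90 without the 2 farthest rats. Gstm1 with Gstm7 was under it by rho alone (0.82, exact permutation p = 0.034, adjusted p = 0.64), with an r of 0.77 (p = 0.050, adjusted p = 0.53) that was 0.46 without the 2 farthest rats.

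As a description, 16 of 28 pairs had a positive r in extract rats, with a median of 0.031, and 25 of 28 in control rats, with a median of 0.43. The difference between the groups was not tested, and the 28 pairs share the same 7 arrays. The spread also differed by gene. The SD was smaller in extract rats for 6 of 8 genes, such as Gstm2 with 0.073 in extract and 0.21 in control rats. It was larger in extract rats for Gstm3, with 0.35 against 0.20, and slightly so for Gstm5.

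**Figure D3:**
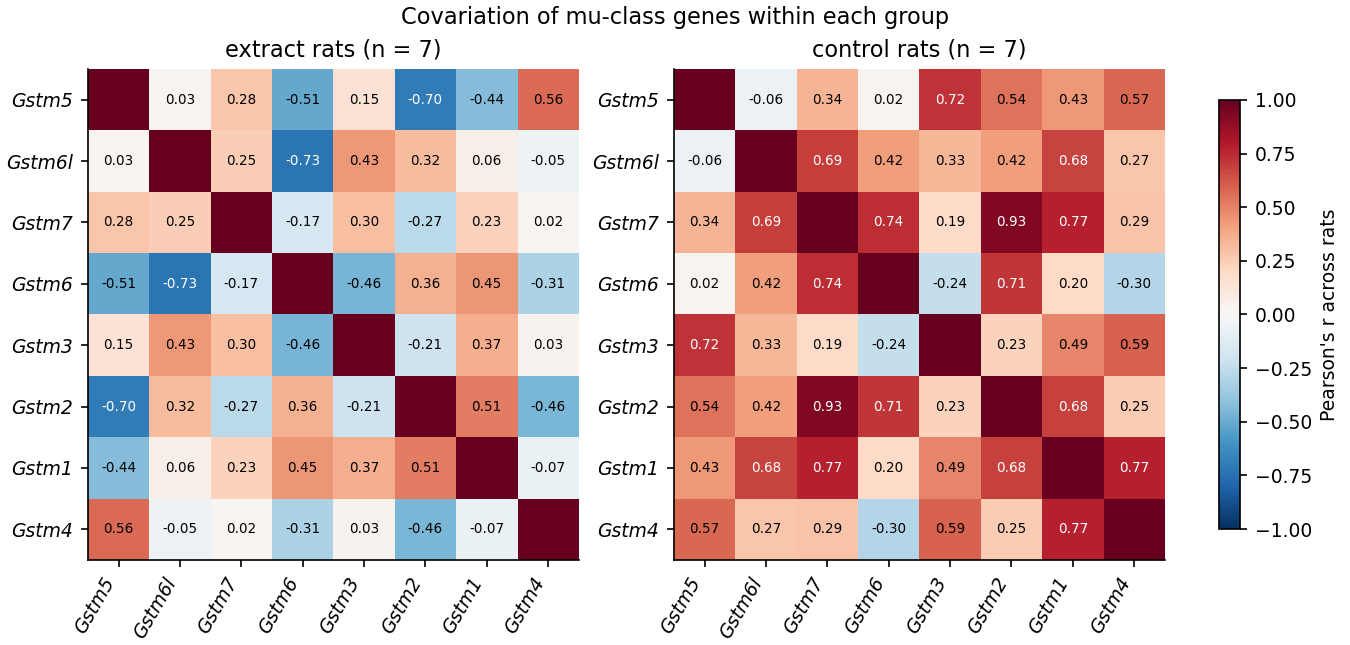
Pearson's r between pairs of mu-class genes across the 7 extract rats (left) and the 7 control rats (right), with genes in cluster order on both axes and r printed in each cell. Gstm2 with Gstm7 reads 0.93 in control rats and -0.27 in extract rats, and 0 of 56 values passed after adjustment.

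Genes of other families that varied most like each member were found from deviations from the group means over 14 rats, 3 per member. The 24 correlations ran from 0.758 to 0.92, the top of a ranking over all genes, and share arrays and normalization. Gstm2 went most closely with Snx24, Myh4 and Selenoi, Gstm1 with Ftl1, Csrp2 and Prim2, and Gstm4 with Hfe, Phb1 and Atp5mc2. For Gstm3 they were Tceanc, Mtfr1l and Cnnm1, and for Gstm6l Tpi1l1, Chrna6 and Plpp7. For Gstm7 they were Vps41, Bdh1 and Rxrg, for Gstm5 Capn13, C17h6orf52 and Adprh, and for Gstm6 Ice1, Brd7 and Prdm2. Of these 24, 1 passed limma's test between the groups. It was Snx24, a sorting nexin, with a log2 fold of -0.42 (adjusted p = 0.000706), opposite in sign to the rise of Gstm2. Several of the 24 had means below the median probe in both groups. Among them were Myh4 (3.98 in extract and 3.88 in control rats), Chrna6 (3.59 and 3.43) and Capn13 (3.91 and 3.80). How far their variation is background was not tested.

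Other genes that handle glutathione conjugates moved in part with the mu class. Among the remaining transferases that are not membrane-bound, 4 of 10 measured genes rose, 0 fell and 6 did not pass, with a median log2 fold of 0.25. Gstp1, the pi-class enzyme, had a log2 fold of 2.36 (12.26 ± 0.19 in extract and 9.90 ± 0.78 in control rats, SD, n = 7 each, adjusted p = 1.96e-05). Gsta3, an alpha-class enzyme, had 1.47 (10.37 ± 0.22 in extract and 8.90 ± 0.78 in control rats, adjusted p = 0.0028), so both had a wide spread in controls that no mu-class gene showed to that size. Gstt1, a theta-class enzyme, had 0.46 and Gsta1 had 0.27 (adjusted p = 0.00378 and 0.041). The unequal-variance test called 2 of these. Of 5 membrane-bound transferases and relatives 1 rose, Mgst2 (log2 fold 0.59, adjusted p = 0.028), where 3.15% of all genes were called. The unequal-variance test called 0 of the 5. The median of that list was -0.06.

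Upstream of the transferases, 6 of 10 genes of glutathione synthesis and recycling rose, 0 fell and 4 did not pass, with a median of 0.40. Over all genes, 2.00% were called higher and 1.15% lower. They included Gsr, which regenerates reduced glutathione (log2 fold 0.84, adjusted p = 1.42e-06), and Gclc and Gclm, the subunits of the rate-limiting ligase (0.88 and 1.01, adjusted p = 3.12e-06 and 3.47e-05). Slc3a2, a chain of the cystine and amino acid transporters, had 0.45 (adjusted p = 0.015). Of the list, 4 passed the unequal-variance test, which called 227 of all 14506 genes.

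Downstream, limma called 0 of 15 genes that trim glutathione conjugates to mercapturates, 2 had an unadjusted p under 0.05, and the unequal-variance test called 0. These counts are near the shares over all genes, 3.15% called and 14.8% under that unadjusted p. The median log2 fold of the 15 genes was 0.04. Of them, 5 had both group means below the median probe, where a change may be compressed. The smallest p there was that of Ggt5, a glutamyltransferase (log2 fold -0.17, adjusted p = 0.19). Of 7 measured conjugate efflux pumps, 2 rose and 1 fell, with a median of 0.15. Abcc3, the pump of the sinusoidal membrane, had a log2 fold of 1.97 (adjusted p = 5.59e-08) and Abcc2, that of the bile canaliculus, 0.34 (adjusted p = 0.048). Abcg2, a canalicular half-transporter, had -0.59 (adjusted p = 0.00940), and the unequal-variance test called 1 of the 7.

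Among 14 regulators of transferase genes, 1 rose, 0 fell and 13 did not pass, with a median of 0.09. In limma's test 4 of the 14 had an unadjusted p under 0.05. Over all genes, 3.15% were called and 14.8% were under that unadjusted p, and counts this small do not set the list apart. Nr1i3, which encodes CAR, had a log2 fold of 2.38 (7.45 in extract and 5.08 in control rats, adjusted p = 6.37e-09). Of 12 other genes commonly induced through NRF2, 10 rose, 0 fell and 2 did not pass, with a median of 0.96. The leading ones by p were Akr1b8 and Akr7a3, which reduce aldehydes, Nqo1, a quinone reductase, and Aldh1a1, a retinaldehyde dehydrogenase. Their log2 folds were 4.57, 2.21, 1.55 and 1.45, with adjusted p of 2.71e-08, 3.32e-08, 3.59e-07 and 1.60e-06. The log2 folds of Gstm3 and Gstm1 both fell within the range of that list, -0.17 to 4.57. That of Gstm1, with the limit of its bright probe, lay below the list's 10 called members, which are high in part because they passed. It lay above the 2 that did not pass, Prdx1 (0.10) and Hmox1 (-0.17).

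**Figure D4:**
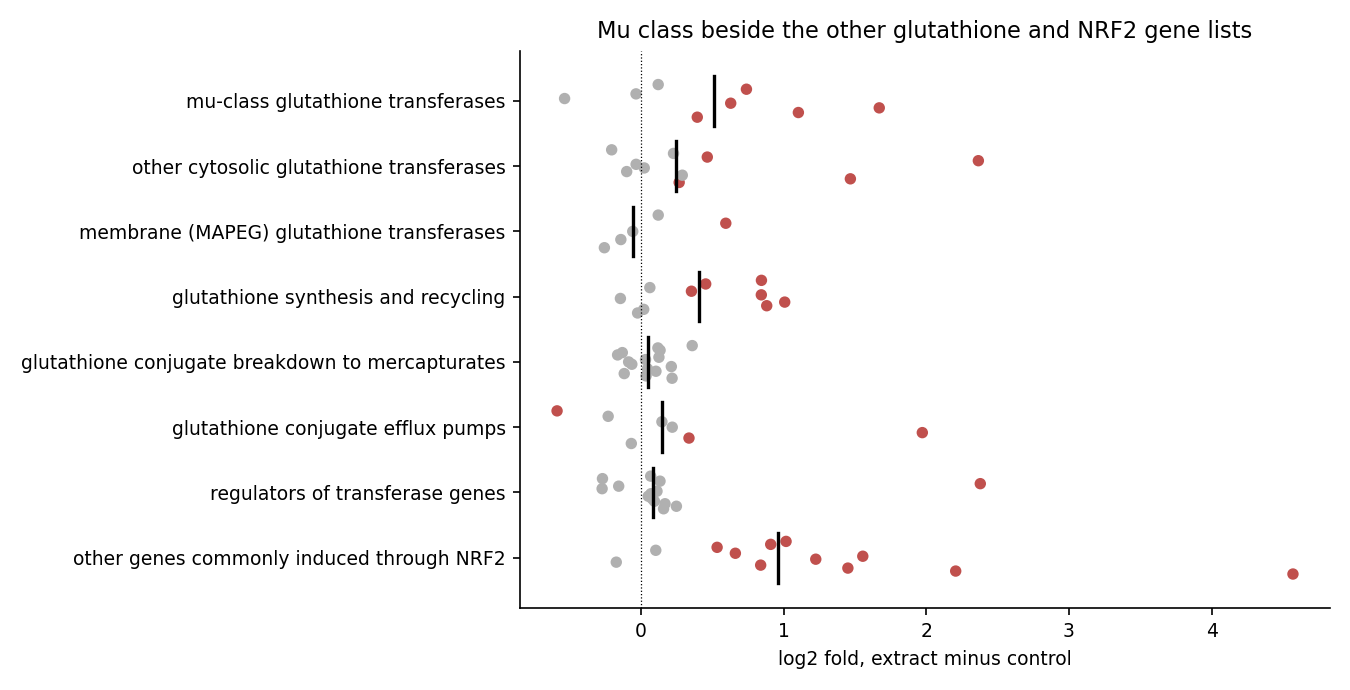
Log2 fold (extract minus control) of each measured gene, 1 point per gene, in the mu class and in 7 other gene lists. Red marks genes past an adjusted p of 0.05, grey those that did not pass, and the black line the list's median, 0.51 for the mu class. The list labelled other cytosolic glutathione transferases includes Gstk1, which is not cytosolic.

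Across the series, the array medians lay between 5.02 and 5.15, pairs of arrays correlated between 0.984 and 0.997, and limma called 457 genes, 290 higher and 167 lower (292 lower without control rat 1). The standard error of a log2 fold had a median of 0.087 over genes. Hepatocyte markers were bright: limma called 0 of 10 (0 at an unadjusted p under 0.05, and the unequal-variance test called 0), and their mean log2 level was 12.56 to 12.66 in extract and 12.58 to 12.72 in control rats. Of 9 Kupffer cell and macrophage markers, 2 fell, Marco and Vsig4, 8 had an unadjusted p under 0.05, and the list's mean level was 8.35 to 8.73 in extract and 8.78 to 8.99 in control rats. All 9 had negative log2 folds, from -0.73 to -0.21, with a median of -0.29. In bulk liver, fewer cells of a type and less RNA per cell cannot be told apart, and the part of these markers in the mu-class results was not tested. Prom1 fell among 8 bile duct markers, whose mean level was 4.74 to 5.26 in extract and 4.91 to 5.24 in control rats. Pdgfrb fell among 9 stellate cell markers, whose mean level was 6.42 to 6.77 in extract and 6.60 to 6.94 in control rats. Neither list fell as a whole, with median log2 folds of 0.14 and 0.03. In each of them 2 genes had an unadjusted p under 0.05. In the unequal-variance test Marco and Prom1 kept their calls (adjusted p = 0.0458 and 0.00203), whereas Vsig4 and Pdgfrb did not (0.0972 and 0.116). Those named markers were chosen after their values were seen. Among 30 measured markers of endothelium, lymphocytes, red cells, adipose tissue and pancreas limma and the unequal-variance test called 0, and 5 had an unadjusted p under 0.05, near the 14.8% of all genes. The 4 endothelial markers had log2 folds from -0.24 to -0.14, with a median of -0.19. In limma's test 2 of those 4 had an unadjusted p under 0.05. Medians were -0.06 for lymphocytes, -0.18 for red cells, -0.02 for adipose tissue and 0.11 for pancreas.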

How the data were processed

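Total liver RNA was labelled as sense-strand DNA with a whole-transcript kit and hybridised to Affymetrix arrays, 1 for each rat, as the labels' protocols state. The authors deposited log2 expression values for 29215 probes, made with RMA and Affymetrix Expression Console 1.1.2 per the submitters' processing notes. Their options and a genome build are not given in the sources used here, and the log2 scale was read from their range. No detection calls, slides or scan dates were used.

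GEO's platform annotation named the probes. It gives 15310 of them exactly 1 symbol, 323 several and 13582 none. Symbols were checked by Entrez identifier against the GRCr8 gene table, which held 15279 of them and changed 0. The brightest probe stood for a gene, giving 14506 genes. Probe sequences were not used, so how far near-identical paralogues share signal was not tested.

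All genes were fitted with limma 3.58.1 (R 4.3.3, lmFit and eBayes, no covariate) and adjusted by Benjamini-Hochberg. The other tests used Python 3.11.15 with NumPy 2.4.6 and SciPy 1.17.1. The limma test was checked on simulated data, 5 runs with 200 changed genes each, where it found 85.4% of log2 changes of 0.5 and 11.6% of those of 0.25. The number of arrays limits the precision. Replicates are separate animals, per the labels.

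The members, lists, tests and alternatives were chosen with earlier results of these data known. Named genes are every member, up to 4 called members of each list by smallest p (otherwise the one with the smallest p), and the 3 most alike genes per member. Alternatives were a repeated quantile normalization, median centring, a mean of at least 6, the mean of all probes, every probe tested, an intensity trend, array weights, an unequal-variance test, a replicate block, an adjusted p of 0.1, and leaving out each array. Fits without the 2 arrays of lowest weight were added after the data were seen.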

Additional observations from a re-analysis of the deposited data

Results flagged for a closer look

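In 16 groups of 7 rats (8 genes in each diet group), 2 held a rat far from the others by Dixon's ratio, where chance flags about 5% of groups. Gstm7 in extract rat 6 was 9.703, below the other 6 extract rats, with a ratio of 0.647. Gstm6 in extract rat 5 was 3.149, the lowest of its group, with a ratio of 0.609, on a probe that was dim in every rat.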

How the results depend on the processing

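Gstm1, Gstm2, Gstm3, Gstm4 and Gstm6l kept their direction and their call under each alternative that could test them, also without the 2 arrays of lowest weight (extract rat 4 and control rat 1), a fit added after seeing the data. Their highest adjusted p was 0.0298, for Gstm4 in the unequal-variance test. With a minimum mean of 6, 4 members were tested and 3 called, because the filter drops Gstm3, Gstm5, Gstm6 and Gstm6l. At an adjusted p of 0.1, 1 member, Gstm5, counted as lower. The fold of Gstm6 ranged from -0.063 to 0.0084 on leaving out 1 rat, turning positive without extract rat 5 (0.0084). The count of all genes called was 694 with array weights, 227 in the unequal-variance test, 719 at an adjusted p of 0.1, and 326 to 621 on leaving out 1 rat. Gstm6 minus Gstm5 lost its call after repeated quantile normalization (0.48, adjusted p = 0.062) and without the 2 arrays of lowest weight (0.47, adjusted p = 0.051). Leaving out 1 rat gave 0.40 to 0.59 for Gstm6 minus Gstm5, 0.18 to 0.29 for Gstm4 minus Gstm1 and 0.11 to 0.23 for Gstm7 minus Gstm6. The cause was not tested. The labels give rat numbers but name no pairing. Deviations of same-numbered rats over all genes correlated between -0.46 and 0.282, and 2 of 7 matched their own number best. Such correlations cannot exclude a pairing that leaves little trace over all genes. With the rat number as a replicate block, 364 genes and the same 5 members were called, and only Gstm4 minus Gstm1 (0.23, adjusted p = 0.11) and Gstm6 minus Gstm5 (0.50, adjusted p = 0.21) lost their calls.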
